A study of Arabidopsis thaliana with 4 samples.

Results

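The events described here are pairs of alternative 3' splice sites that lie 3 bp apart, in seedlings of 2 Arabidopsis thaliana ecotypes, Ler (Landsberg erecta) and Col (Columbia). They were selected from the event table on distance alone: an alternative 3' site event with all coordinates was kept when its intervals on the Col genome differed in length by 3 bp. This left 516 events in 485 genes, of 3996 alternative 3' site events with all coordinates and 14133 events of every kind. Events 2 bp apart numbered 19 and events 4 bp apart numbered 298. The 516 events use 510 distinct acceptor pairs, since 6 pairs were each listed with a pair of different donor sites.

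The labels give 2 libraries of polyadenylated RNA from Ler and 2 from Col, all from 14-day-old untreated seedlings on sucrose plates in short days. They name the first leaf in one field and shoots in another, and they do not say whether the libraries of an ecotype came from separate plantings. The deposited table holds 1 pooled level per ecotype. No value below therefore has an SD or an n of its own, the number of reads behind it is unknown, and the spread between libraries is not shown.

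Introns end in the dinucleotide AG, and the spliceosome usually takes the first suitable AG after the branch point and its pyrimidine-rich tract. Where a second AG follows at once, both can serve as acceptor, an arrangement known as a tandem or NAGNAG acceptor, N standing for any base. Choice of the upstream acceptor leaves the additional triplet in the messenger RNA, and choice of the downstream acceptor removes it with the intron. Such a choice adds or removes a codon's worth of sequence without shifting the reading frame. The base before AG matters to acceptor strength, with cytosine and thymine generally stronger than adenine, and guanine weakest. The level given below is the inclusion level, the percentage of splicing assigned to the upstream acceptor, which gives the longer exon.

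The sequences of these acceptors were read from the Col reference (RefSeq copy of TAIR10), and the sites were tandem AG acceptors almost without exception. Both acceptors ended in AG in 514 of the 516 events. The pairs below are shown because they carry the main findings: the first 4 had large marked differences with both acceptors annotated, the next had no AG at its upstream site in Col, CRR1 gains an in-frame stop codon, and the last 3 were alike in the ecotypes. Each run is the 30 bases from 20 before the upstream cut to 7 after the downstream cut, on the transcribed strand, with the last 3 intron bases of the upstream acceptor and the 3 bases after them in capitals.
EMB3142, chr5:20818225-20818254, plus strand: gtttctcatctggtggaCAGAAGggatcag
POLGAMMA2, chr1:18841928-18841957, plus strand: tctgtttatttcttcctCAGTAGtcatgac
CPN20, chr5:7014990-7015019, plus strand: ttgtgtgttttgacggaTAGGAGaaatggc
AT1G33470, chr1:12145664-12145693, plus strand: ttggattattgtttttaCAGCAGagctatt
AT2G29210, chr2:12560020-12560049, plus strand: aatgctgtctacttttaTAACAGcgaacgg
CRR1, chr5:21170746-21170775, plus strand: acctaaacgaatgtcttTAGTAGggaaaag
SCL33, chr1:20632128-20632157, plus strand: tttttggttcgttggagCAGCAGatttcgg
RS41, chr5:21133265-21133294, plus strand: ttgtggttttgaaactgAAGCAGcccctct
AT3G09630, chr3:2955311-2955340, plus strand: atctatttttcttacatCAGGAGgaggcgt

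Both acceptors of a pair were commonly used. The median level was 54.5% in Ler (quartiles 16.0 and 85.6%) and 55.6% in Col (13 and 92.8%). In 233 events (45.2%) the level lay between 10 and 90% in both ecotypes. The upstream acceptor took over 90% in both ecotypes in 103 events, and under 10% in both in 73. The other alternative 3' sites, 3480 events with larger or smaller distances, had medians of 74.2% in Ler and 74.3% in Col, and 34.7% of them lay between 10 and 90% in both ecotypes. Across the 516 events, which share libraries and in part genes, Pearson's r between Ler and Col was 0.921.

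The base before AG at each acceptor went with the level in both ecotypes, as the grid of medians by base shows. Where both acceptors had cytosine, the largest class, the median was 57.5% in Ler and 61.7% in Col (111 events). Cytosine followed by adenine gave 94.5% in Ler and 95.6% in Col (80 events), and adenine followed by cytosine gave 6.12% in Ler and 3.21% in Col (49 events). With both acceptors annotated, adenine followed by cytosine gave 15% in Ler and 15.9% in Col (21 events). Thymine upstream of cytosine gave 20.3% in Ler and 15.7% in Col (106 events), and the reverse order, cytosine upstream of thymine, gave 72.3% in Ler and 79.5% in Col (39 events). Ranked cytosine, thymine, adenine, guanine, the better-ranked acceptor was the upstream one in 166 events, and it took over 50% of splicing in 149 of these in Ler and in 151 in Col. It was the downstream one in 169 events, and the upstream acceptor stayed under 50% in 147 of these in Ler and in 146 in Col.

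**Figure D1:**
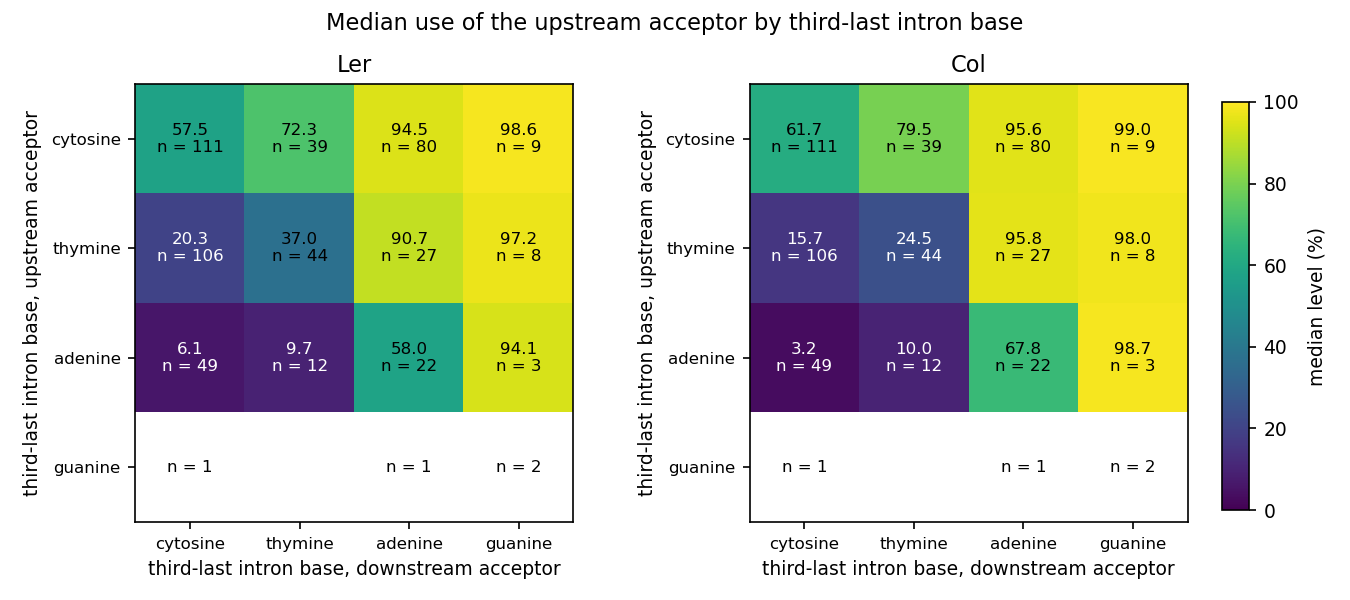
Median level of the upstream acceptor (%) by the third-last intron base at the upstream acceptor (rows) and at the downstream acceptor (columns), with Ler in the left grid and Col in the right, and the number of events in each cell. Cells with fewer than 3 events carry only their number. Medians run high in the upper right, where cytosine precedes adenine (94.5% in Ler and 95.6% in Col), and low in the lower left, where adenine precedes cytosine (6.12% in Ler and 3.21% in Col, or 15% in Ler and 15.9% in Col with both acceptors annotated).

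Pairs with the same base at both acceptors did not all split evenly. When both had thymine, the median was 37.0% in Ler and 24.5% in Col (44 events), or 44.5% in Ler and 39.5% in Col with both annotated (26 events). When both had adenine it was 58.0% in Ler and 67.8% in Col (22 events), or 53.9% in Ler and 61.7% in Col with both annotated (14 events). Cytosine pairs with both annotated had 51.3% in Ler and 52.6% in Col (72 events). Whatever the annotation, the quartiles of these classes were wide: for all 111 events with cytosine at both acceptors they were 31.5 and 79.6% in Ler and 36.6 and 90.6% in Col. The cytosine pairs were also split by the exon base after the downstream acceptor. Their median was 60.4% in Ler and 55.7% in Col with guanine there (36 events), and 45.7% in Ler and 50.7% in Col with adenine (34 events). With thymine it was 52.4% in Ler and 64.1% in Col (16 events), and with cytosine 77.9% in Ler and 86.5% in Col (25 events). Over all tandem AG pairs, cytosine there went with 52.6% in Ler and 54.7% in Col (92 events). Thymine there went with 70.1% in Ler and 79.4% in Col (72 events). Pyrimidine content of the 20 bases before the upstream triplet, with a median of 60%, went with little change in level: the median was 54.2% in Ler and 56.5% in Col at up to 55% pyrimidine (171 events), and 55.9% in Ler and 58.6% in Col at 70% or more (187 events).

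Which tandem pairs appeared among the events also differed by base. The motif NAGNAG was searched on the transcribed strand only, at the ends of annotated introns of at least 30 bp, and 6.78% of 131130 annotated AG acceptors had another AG 3 bp upstream or downstream. These gave 8486 pairs, of which 497 (5.86%) were among the events. Of 299 reference pairs with cytosine at both acceptors 35.8% were among the events, and of 148 with thymine at both 29.7% were. Cytosine followed by guanine was the most frequent reference pair, with 2616 cases, but 9 of them (0.344%) were among the events. Of the 748 reference pairs with guanine upstream of cytosine, 1 was. Expression of the genes, which also sets whether an event is seen, was not used here.

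Most pairs lay in protein-coding sequence. The segment was in the coding span of the gene in 429 events, on the 5' UTR side in 70 and on the 3' UTR side in 13. Median levels were 54.8% in Ler and 55.2% in Col in the coding span, and 55.4% in Ler and 60.9% in Col on the 5' UTR side. By the annotated reading frame, the upstream acceptor fell between codons (phase 0) in 204 events, after the second base of a codon (phase 1) in 71 and after the first base (phase 2) in 143. Where the segment formed a whole codon, its first base was thymine, and the codon a stop, in 22 of 204 events (10.8%). A thymine stood there in 25 of 70 tandem AG pairs in phase 1 (35.7%) and in 28 of 143 in phase 2 (19.6%).

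Use of the upstream acceptor would place a stop codon in the frame in 23 of the 416 events with a known frame. In those 23 events its median level was 9.95% in Ler and 1.84% in Col, against 57.1% in Ler and 58.6% in Col for the 391 events with no stop in either form. Those groups differ in annotation, and all 83 events with the downstream acceptor alone annotated had medians of 7.26% in Ler and 0.709% in Col. Only the downstream acceptor is annotated in 19 of the 23, and in all 19 the level was higher in Ler than in Col by value, marked or not. In the 3 with both acceptors annotated the level was lower in Ler: GPS1 had 6.08% in Ler and 16% in Col, SPHK1 had 5.21% in Ler and 15.8% in Col, and BPC5, a GAGA-binding transcription factor, had 56.2% in Ler and 65.8% in Col, all without a mark. Of the 23, the marked events were CRR1, MEE18 and AT1G54220, all higher in Ler. CRR1, needed for the chloroplast NDH complex, had 14.5% in Ler and 1.84% in Col. MEE18, a gene of embryo development, had 25.8% in Ler and 7.59% in Col. AT1G54220, a dihydrolipoamide acetyltransferase of the pyruvate dehydrogenase complex, had 11.8% in Ler and was listed at 0 in Col.

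The ecotypes differed at a minority of the pairs. A mark is the direction sign that the authors set beside an event. The authors' deposited table marked 66 of the 516 events (12.8%, 95% Wilson interval 10.2 to 15.9%, which covers counting of events only). Over all 14133 events the same mark was given to 7.46%, and over all 4026 alternative 3' site events to 6.28%. Of the 66, 33 had the higher level in Ler and 33 in Col. Marks toward Ler were given to 3.38% of all events and 2.63% of alternative 3' site events. Marks toward Col were given to 4.08% of all events and 3.65% of alternative 3' site events. The marked differences ran between 10.2 and 77.8 points, with a median of 20.5 points. At any difference, 129 of the 516 events (25%) had q under 0.05 in the authors' deposited table, against 14.3% of all events. With both acceptors annotated, 38 of 312 events did (12.2%). With the upstream acceptor alone annotated 54 of 105 did (51.4%), and with the downstream one alone 36 of 83 did (43.4%). At 2 bp 2 of 19 events were marked, at 4 bp 2 of 298 (0.671%), and at 5 to 12 bp 48 of 1176 (4.08%).

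Direction and annotation of the acceptors moved together, and this touches every count of marks. Both acceptors are annotated in RefSeq for 312 events, the upstream one alone for 105, the downstream one alone for 83 and neither for 16. Where the upstream acceptor alone is annotated, the median level was 91.0% in Ler and 98.5% in Col, the level was lower in Ler in 97 of 105 events, and all 24 marks were toward Col. Where the downstream acceptor alone is annotated, the median was 7.26% in Ler and 0.709% in Col, the level was higher in Ler in 76 of 83 events, and all 16 marks were toward Ler. Where both are annotated, the median was 50% in Ler and 52.6% in Col, and the level was higher in Ler in 139 events and lower in 172. In that class 26 of 312 events were marked (8.33%, 5.75 to 11.9%), 17 toward Ler and 9 toward Col. Over all 14133 events, whatever their annotation, the share marked was 7.46%, which lies inside that interval. With both acceptors annotated at other distances, the share was 1.56% at 4 bp and 3.69% at 5 to 12 bp. It was 5.59% at 13 to 44 bp and 7.59% over 44 bp. No event with neither acceptor annotated was marked in the authors' deposited table, and 1 of these 16 had a q value under 0.05 there.

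**Figure D2:**
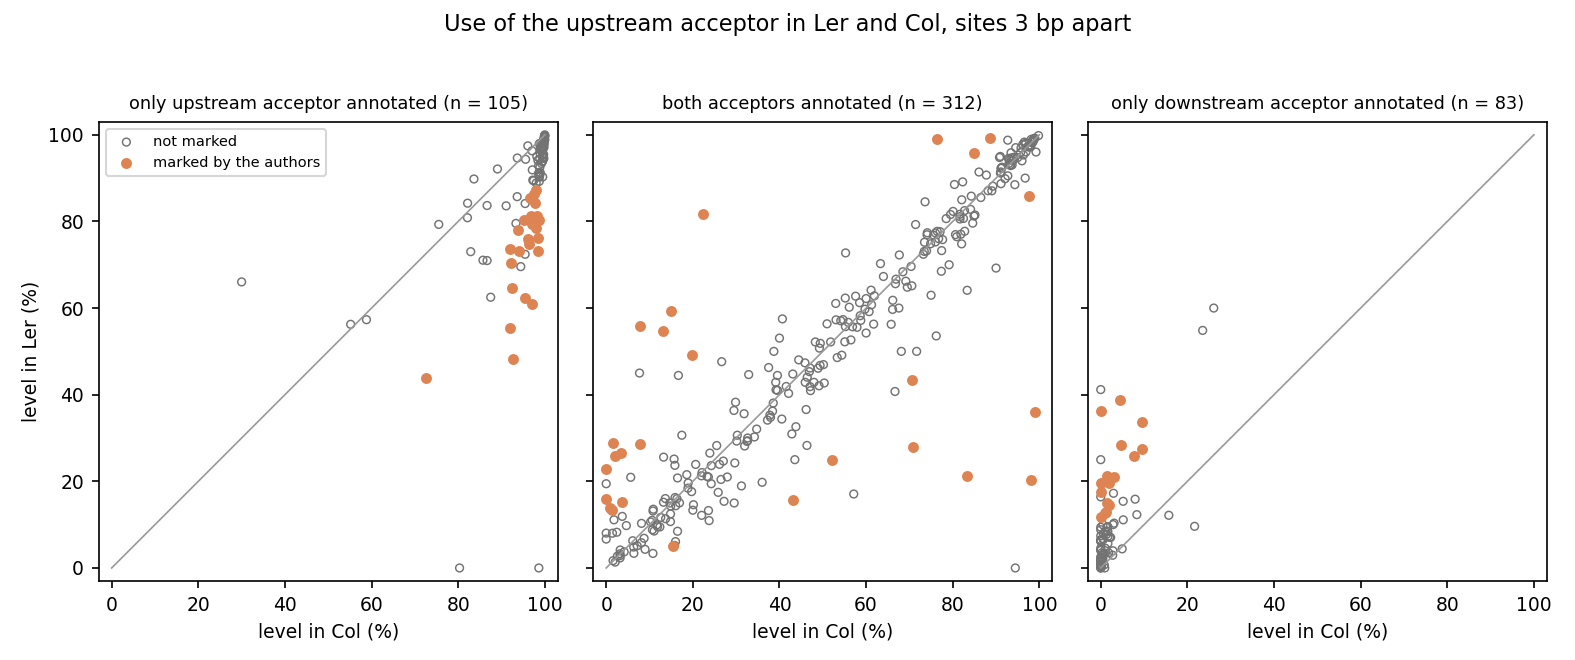
Level of the upstream acceptor in Ler (vertical axis, %) against Col (horizontal axis, %) for events in which the upstream acceptor alone, both acceptors or the downstream acceptor alone is annotated. Filled points are events marked in the authors' deposited table and the line marks equal levels. With both annotated the points lie on either side of the line, while 97 of 105 points in the left panel lie below it and 76 of 83 in the right panel lie above it.

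Put in terms of the unannotated acceptor, its share was a median of 8.01% in Ler and 1.28% in Col over these 188 events, and it was higher in Ler in 173 of them. It exceeded 10% in 76 events in Ler and in 19 in Col. All 40 marks in these events were toward more use of the unannotated acceptor in Ler. At distances of 4 bp and more the levels over all events showed no such lean, while the marked events did. Events less than 3 bp apart were not examined for it. At 4 bp the medians were 4.79% in Ler and 4.66% in Col, with 111 of 232 events higher in Ler, and at 5 to 12 bp they were 5.32% in Ler and 5.02% in Col, with 383 of 789 higher in Ler. Of the marked events with 1 annotated acceptor, more use of the unannotated one in Ler was found in 28 of 32 at 5 to 12 bp, in 23 of 32 at 13 to 44 bp, in 32 of 39 over 44 bp and in the 1 marked at 4 bp. Among the 164 events at 3 bp whose intervals have the same lengths in both genomes, the share was 8.37% in Ler and 1.26% in Col, and 152 were higher in Ler. The labels do not say which annotation the authors used or how reads were placed for each ecotype, and the part of either in this lean was not tested.

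**Figure D3:**
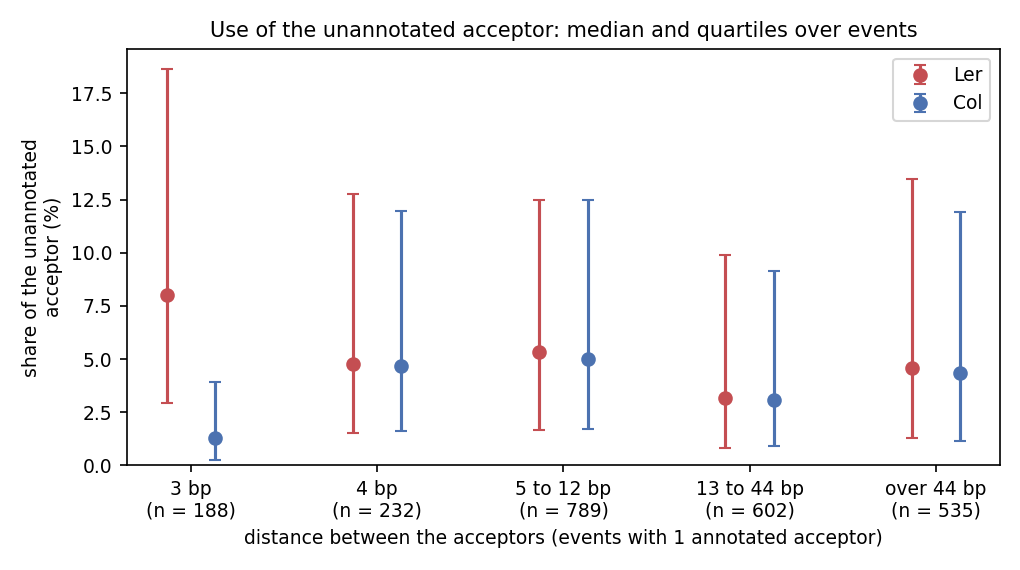
Share of splicing at the unannotated acceptor (%) in Ler and Col, by distance between the acceptors, for events with exactly 1 annotated acceptor. Points are medians over events and bars run between the quartiles. At 3 bp the median is 8.01% in Ler and 1.28% in Col, and at the larger distances shown the medians of the ecotypes lie close together.

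Among the pairs with both acceptors annotated, 11 marked events were higher in Ler by over 20 points. EMB3142, annotated as a nuclear pore protein, had 81.8% in Ler and 22.4% in Col (q = 5.85e-12 in the authors' deposited table). Its pair has cytosine upstream and adenine downstream, a class whose median in Col was 95.6%, so the Col level of this gene stood far below its class. POLGAMMA2, a DNA polymerase of organelles, had 59.3% in Ler and 15% in Col (q = 2.41e-12 in the authors' deposited table). AT1G30590, an RRN3-like initiation factor of RNA polymerase I, had 55.9% in Ler and 7.69% in Col, with the pair upstream of the coding span. In each of these 3 genes the more used acceptor differed between the ecotypes.

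The next differences in the same direction were smaller. AT1G17520, a homeodomain-like DNA-binding protein, had 49.3% in Ler and 19.7% in Col. GYRB3, annotated as a DNA gyrase subunit, had 28.8% in Ler and 1.61% in Col. AT3G16840, a helicase-like P-loop protein, had 26.4% in Ler and 3.51% in Col, and AT5G53020, annotated as similar to a subunit of ribonuclease P, had 22.9% in Ler and was listed at 0 in Col. PPAN, a PETER PAN-like protein of the family that serves ribosome assembly, differed at the upper end, with 99.1% in Ler and 76.3% in Col. The remaining members were AT5G45020, a glutathione S-transferase family protein (54.8% in Ler and 13.2% in Col), the class XI myosin motor XI-I (28.7% in Ler and 7.69% in Col) and ORP2B, an oxysterol-binding-related protein (25.8% in Ler and 2.00% in Col).

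In the other direction, 7 pairs with both acceptors annotated were marked higher in Col by over 20 points. The largest difference of all was in CPN20, the co-chaperonin that works with chaperonin in chloroplasts, with 20.3% in Ler and 98.1% in Col (q listed as 0 in the authors' deposited table). The pair lies on the 5' UTR side, at chr5:7015010-7015012, and its downstream triplet begins with guanine, a class whose Ler levels had a median of 97.2%. The interval spans 263 bp in Col and 234 bp in Ler. AT5G50130, a Rossmann-fold protein, had 36.0% in Ler and 99.0% in Col, and its interval spans 135 bp in Col and 175 bp in Ler. AT5G16280, a tetratricopeptide repeat protein, had 21.2% in Ler and 83.3% in Col with equal intervals of 99 bp. The part of the unequal lengths in CPN20 and AT5G50130 was not tested.

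AT1G33470, an RNA-binding protein with an RNA recognition motif, had 27.8% in Ler and 70.8% in Col (q = 7.91e-15 in the authors' deposited table). The pair has cytosine at both acceptors and lies in the coding span, in a 76 bp intron of equal length in both genomes. AT3G10810, a RING finger protein, had 43.3% in Ler and 70.6% in Col. AT1G58025, a bromodomain protein, had 25% in Ler and 52.2% in Col. PMD1, a protein that acts in peroxisome and mitochondrion division, had 15.7% in Ler and 43.0% in Col, on the 5' UTR side. These were the 7 pairs, and in 6 of them, all but PMD1, the majority acceptor was not the same in Ler and Col.

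**Figure D4:**
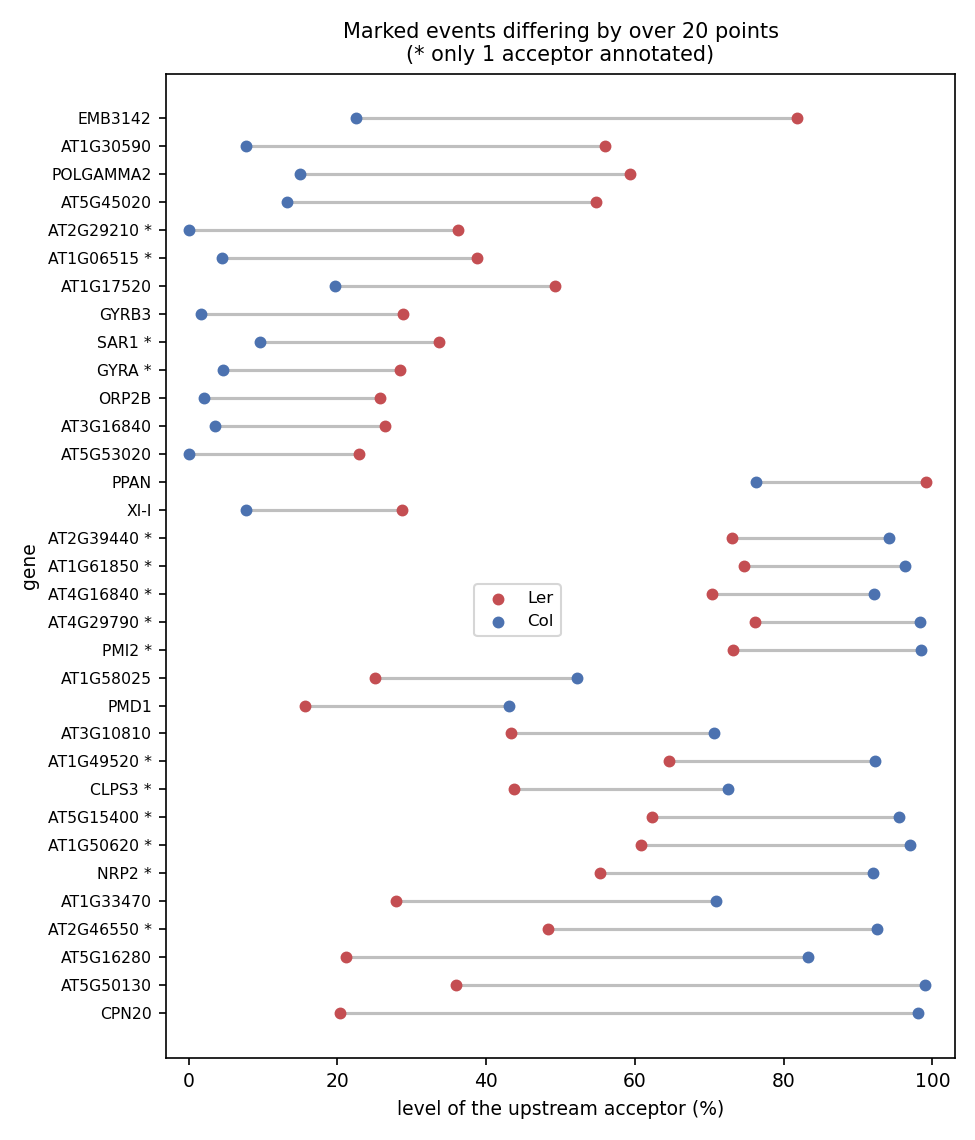
Level of the upstream acceptor (%) in Ler and Col for the 33 marked events that differed by over 20 percentage points, ordered by the difference from higher in Ler (top) to higher in Col (bottom). An asterisk marks genes in which 1 acceptor alone is annotated. The 15 upper events are higher in Ler, led by EMB3142, and the 18 lower ones are higher in Col, with CPN20 at the bottom.

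Smaller marked differences with both acceptors annotated, of 10.2 to 16.0 points, were found in 8 events. Higher in Ler were the receptor kinase family gene AT2G37050, the glyoxalase GLX2-5, the acetyltransferase family gene AT4G14920, AT1G13880, AT1G02080 and the F-box gene FBS4. Higher in Col were UBP26, a ubiquitin-specific protease acting on histone H2B (85.9% in Ler and 97.7% in Col), and AT4G34140, a G-patch protein (5.13% in Ler and 15.3% in Col).

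The 11 marked events over 20 points with the upstream acceptor alone annotated were all higher in Col. NRP2, a histone chaperone, had 55.3% in Ler and 92.0% in Col, and AT1G50620, a PHD finger protein, had 60.9% in Ler and 97.0% in Col. CLPS3, a relative of the RNA 3' end processing factor CLP1, had 43.8% in Ler and 72.6% in Col. PMI2, needed for chloroplast movement in light, had 73.2% in Ler and 98.5% in Col. AT5G15400, a U-box ubiquitin ligase family protein, had 62.3% in Ler and 95.5% in Col. The others were AT2G46550, AT1G49520, AT4G29790, AT4G16840, AT1G61850 and AT2G39440, with levels of 48.3 to 76.1% in Ler and 92.2 to 98.4% in Col. A further 13 events of this class, with smaller differences, included AGO2, an Argonaute of small RNA silencing (76.1% in Ler and 96.1% in Col), the poly(A) polymerase PAPS2 (78.4% in Ler and 97.9% in Col), MPK20, a MAP kinase (73.6% in Ler and 92.0% in Col), and MOR1, a microtubule-associated protein (79.5% in Ler and 97.0% in Col). The rest of the 13 were GPDHC1, MSL3, SRS, AT1G54460, AT3G06880, AT3G13990, AT3G17450, AT3G59290 and AT3G61690.

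With the downstream acceptor alone annotated, 4 marked events were higher in Ler by over 20 points. AT2G29210, a splicing factor with a PWI domain, had 36.2% in Ler and was listed at 0 in Col (q = 1.89e-30 in the authors' deposited table). Its upstream site ends in AA and not AG in the Col reference, as printed above, and it was the one event without AG there. The Ler sequence of this site was not used here. AT1G06515, a small transmembrane protein, had 38.8% in Ler and 4.55% in Col. SAR1, a nucleoporin linked to auxin response, had 33.6% in Ler and 9.59% in Col, and GYRA, a DNA gyrase subunit of organelles, had 28.4% in Ler and 4.60% in Col.

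The other 12 marked events of this class had 11.8 to 27.6% in Ler and at most 9.47% in Col. PIE1, the ATPase of the complex that deposits histone H2A.Z, had 27.6% in Ler and 9.47% in Col. ARF4, an auxin response factor, had 19.7% in Ler and was listed at 0 in Col, and XRI1, a DNA repair protein, had 17.5% in Ler and was listed at 0 in Col. ARPC3, a subunit of the actin-nucleating Arp2/3 complex, had 19.6% in Ler and 2.02% in Col. The rest were GAUT7, UBC30, AT1G44790, AT3G54880 and AT4G11670, beside the stop codon genes CRR1, MEE18 and AT1G54220.

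Of the 10 largest differences without a mark, 5 in each direction, 5 were listed at 0 in one ecotype. AT1G14250, a nucleoside phosphatase, was listed at 0 in Ler and had 98.6% in Col, and EXPA1, an expansin that loosens cell walls, was listed at 0 in Ler and had 80.3% in Col. The q value of both is 1 in the authors' deposited table. AtkdsA1, an enzyme of cell wall sugar synthesis, was listed at 0 in Ler and had 94.4% in Col, with q = 0.00015 in the authors' deposited table and yet no mark. In all, 4 unmarked events had q under 0.05 there and a difference of at least 10 points: AtkdsA1 and the events of AT1G63490, AT3G17450 and AT3G49840 given next. Also without a mark were AT1G63490, a jumonji protein (17.1% in Ler and 57.1% in Col), and an event of AT3G17450 (61.1% in Ler and 95.7% in Col). That event, with an 88 bp intron, shares its acceptor pair with the marked AT3G17450 event of the 92 bp intron (80.3% in Ler and 98.6% in Col). In the other direction, NOL, a chlorophyll b reductase, had 50% in Ler and 7.14% in Col, and SDG25, a histone methyltransferase, had 66.0% in Ler and 30% in Col. AT3G49840 had 45% in Ler and 7.69% in Col, and AT1G16180 and AT3G49210 had 41.7 and 41.2% in Ler and were listed at 0 in Col. The AT1G16180 event has a 204 bp intron. With a 331 bp intron the same acceptor pair was alike in the ecotypes, at 16.0% in Ler and 13.7% in Col. Of the 516 events, 7 were listed at 0 in Ler and 34 in Col, 2 of them in both. Of the 34 in Col, 28 were among the 83 events with the downstream acceptor alone annotated. At other distances, 107 of 3480 events were listed at 0 in Ler and 71 in Col.

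SR proteins are rich in serine and arginine and help to define exons. Of 20 SR protein genes, 17 had events of any kind and 2 of these had a pair 3 bp apart, beside 485 of the 5268 genes with events overall. SCL33 had 30.6% in Ler and 30.3% in Col, and RS41 had 15% in Ler and 16.9% in Col, with no mark. Of 14 events in genes whose annotated product names splicing or RNA binding, 2 were marked (14.3%, beside 12.8% of all 516), AT1G33470 and AT2G29210. Next by size in this list came AT1G67950 (12.1% in Ler and 22.0% in Col) and AT2G47640, a small nuclear ribonucleoprotein (36.6% in Ler and 46.2% in Col), both unmarked.

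Genes named for ribosomal proteins had 10 events and none was marked, a count whose 95% Wilson interval reaches 27.8% and so holds the 12.8% of all 516. Their median was 91.7% in Ler and 92.8% in Col, with a median absolute difference of 0.729 points, against 3.87 points over all 516. AT3G09630, a ribosomal protein L4/L1, had 95.3% in Ler and 96.3% in Col, and AT5G46160, a ribosomal protein L14p/L23e, had 88.1% in Ler and 89.3% in Col. AT1G54217, an L18ae family gene, had 9.78% in Ler and 4.65% in Col. AT3G46210, which the product word also captured, had 15% in Ler and 29.5% in Col. Of 11 events in translation and tRNA genes 1 was marked (9.09%, beside 12.8% of all 516), in the seryl-tRNA synthetase gene SRS (85.4% in Ler and 96.5% in Col), and a second pair of that gene had 54.8% in Ler and 23.5% in Col without a mark. Those SRS pairs overlap, since 3 AG triplets follow each other there. OVA5, a lysyl-tRNA synthetase, had 8.36% in Ler and 1.04% in Col, and AT1G44780, named as an initiation factor, had 60% in Ler and 67.6% in Col.

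Of 18 events in the ubiquitin list 6 were marked, 3 toward Ler and 3 toward Col, with 12.8% of all 516 as the figure beside it. These were AT4G14920, FBS4 and UBC30 toward Ler, and AT1G50620, AT3G10810 and UBP26 toward Col. Of these, AT1G50620 and UBC30 have 1 acceptor annotated. The product word RING captured AT1G50620 and AT4G14920, and the unmarked AT3G20280, whose products carry the title RING/FYVE/PHD. Among unmarked members, AT3G54780 had 40.7% in Ler and 66.7% in Col, and AT3G20280 had 69.2% in Ler and 90% in Col. The transcription list, which shares some RING and PHD finger genes with it, had 5 of 28 events marked (17.9%, beside 12.8% of all 516), 3 toward Ler and 2 toward Col. Its unmarked HIT-type zinc finger gene AT4G28820 had 44.4% in Ler and 16.7% in Col.

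Kinases and phosphatases had 33 events, of which 2 were marked (6.06%, beside 12.8% of all 516), in AT2G37050 and MPK20. GCN2, the kinase that phosphorylates initiation factor eIF2 when amino acids run short, had 19.4% in Ler and was listed at 0 in Col, and the protein kinase gene AT5G63370 had 57.5% in Ler and 40.7% in Col, both unmarked. Of 5 events in photosynthesis and chloroplast genes 1 was marked, PMI2, with a 95% Wilson interval of 3.62 to 62.4%. KAC1, a kinesin-like protein of chloroplast movement, had 41.0% in Ler and 39.5% in Col, and the rarely used upstream acceptor of PSRP4, a plastid ribosomal protein, had 0.601% in Ler and 0.0325% in Col. AT5G14260, a Rubisco methyltransferase family protein, had 98.0% in Ler and 99.87% in Col. Of these 5 events, 3 had a q value under 0.05 in the authors' deposited table: PMI2 and the unmarked PSRP4 and AT5G14260. None of 5 events in transport genes was marked in the authors' deposited table, a count whose 95% Wilson interval reaches 43.4%. They included ABCG7 (46.8% in Ler and 49.4% in Col), the amino acid transporter LHT1 (57.3% in Ler and 58.8% in Col), AT1G53780, a proteasome ATPase that the product word captured (24.2% in Ler and 29.7% in Col), and AT5G37360 (98.8% in Ler and 99.8% in Col). In transport, 2 events had a q value under 0.05 in the authors' deposited table.

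Near-even use was found at some pairs in both ecotypes: 42 events lay between 40 and 60% in Ler and in Col. Nearest to an even split were AT4G28706, a pfkB-like carbohydrate kinase (50.8% in Ler and 49.2% in Col), the helicase gene AT3G02060 (51.9% in Ler and 49.4% in Col), AT5G60980, an RNA-binding protein of the NTF2 family (52.2% in Ler and 51.8% in Col), AT5G40700 (52.2% in Ler and 48.3% in Col) and FEI1, a receptor-like kinase (46.9% in Ler and 50.2% in Col). Of these 5, all have both acceptors annotated, 4 have cytosine at both acceptors and FEI1 has thymine at both. The acceptor used for the majority of splicing differed between the ecotypes in 29 of the 516 events (5.62%), of which 12 were marked (2.33% of the 516). At other distances it differed in 204 of 3480 events (5.86%), of which 60 were marked (1.72% of the 3480).

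Most genes held a single pair: 455 of 485 had 1 event, 29 had 2 and LUH had 3. LUH, a co-repressor related to LEUNIG, had its pairs on the 5' UTR side. The first had 29.2% in Ler and 32.5% in Col. The other events share one acceptor pair and differ in the donor site: with the intron of 86 bp the level was 67.3% in Ler and 64.0% in Col, and with that of 288 bp it was 87.5% in Ler and 57.9% in Col. AT1G02080, annotated as a transcription regulator, had 13.9% in Ler and 0.980% in Col at a marked pair and 10.3% in Ler and 8.15% in Col at an unmarked one. Levels also differed by donor at OASA1, a cysteine synthase chosen here after its values were seen, where the same pair had 63.0% in Ler and 75% in Col with the 180 bp intron and 28.2% in Ler and 32.0% in Col with the 268 bp intron.

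The introns carrying these pairs were mostly short, with a median of 113 bp in Col up to the downstream acceptor (quartiles 90 and 222 bp). In introns of up to 85 bp the median level was 39.9% in Ler and 40.1% in Col (80 events), and in those over 250 bp it was 57.3% in Ler and 58.8% in Col (117 events). The share marked was 12.5% in the short class and 14.5% in the long one. In 67 events the interval had another length in Ler, by a median of 2 bp, and 6 of these were marked, against 60 of the 449 with equal lengths. Genes with no other gene within 500 bp held 68 of the events, of which 14 were marked (20.6%), against 52 of 448 in the others (11.6%).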

How the data were processed

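Polyadenylated RNA of Ler and Col was sequenced in 2 libraries each. The submitters' processing notes name TopHat and TAIR10, without versions. The authors deposited 1 inclusion level per event and ecotype as a fraction from 0 to 1, per the file headers, with a text cell that holds a direction sign and a q-value. How libraries were pooled, the read minimum, the estimator and the test were not stated in the labels. The depth is unknown. The q-value and sign of the authors' deposited table form another kind of column, neither counts nor levels, and were only read. Levels were multiplied to percent, and differences are Ler minus Col.

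Interval ends in the table are the exon bases beside the intron: after trimming 1 base at each end, 395 longer and 417 shorter intervals equalled an annotated RefSeq intron (TAIR10.1 copy), and untrimmed intervals matched none. That the level describes the upstream acceptor was settled from the values, since it was near 100% where that acceptor alone is annotated. Sequences, reading frames, gene names (484 of 485 genes matched) and products came from the same reference.

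No test was run, since each ecotype has 1 pooled value. The authors' marks were counted, with 95% Wilson intervals (scipy 1.17.1, Python 3.11.15), which cover counting of events only. The parsing of events was tested on simulated data. The events, gene lists and classes were chosen with earlier results of these data known. Named genes are all marked events, the 5 largest unmarked differences in each direction, up to 4 events per gene list (by product words, and 20 SR genes), the 5 nearest to 50% and the 3 genes with the most events, ties by identifier. Alternatives were other call rules, 1 event per gene, and sets without levels of 0, with equal lengths, away from other genes or by annotation. The split by annotation of marked counts and overall medians was added after the data were seen.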

Additional observations from a re-analysis of the deposited data

How the results depend on the processing

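No paired analysis was possible because the table holds 1 pooled level per ecotype, and for the same reason no library could be left out in turn. Of 97 recomputed values 71 stayed within the interval of the reported median or share, or within 1.5 times the reported count. The 66 marked events became 129 with q under 0.05 at any difference and 33 with at least 20 points. Without genes within 500 bp of another, 14 of 68 events were marked (20.6%). With both acceptors annotated 26 of 312 were marked (8.33%), and with 1 annotated 40 of 188. Subsets hold fewer events, so their lower counts were bound to arise and show no dependence on the processing. The share of marks toward Ler, 50% in all, was 65.4% with both acceptors annotated. Without genes near others the median level in Ler was 60.1% and the median absolute difference 5.12 points. That difference was 2.90 points with both acceptors annotated and 5.87 with 1 annotated, where the median levels were 65.3% in Ler and 86.2% in Col.

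By base, the following medians moved with 1 annotated acceptor: cytosine at both (77.9% in Ler and 95.1% in Col), cytosine before thymine (95.8% in Col), cytosine before adenine (99.3% in Col), thymine before cytosine (11.5% in Ler and 1.49% in Col), thymine at both (12.3% in Ler and 2.86% in Col), thymine before adenine (99.0% in Col), and adenine before cytosine (2.93% in Ler and 0.265% in Col). With both annotated, adenine before cytosine had 15% in Ler and 15.9% in Col, and cytosine before adenine had 91.2% in Col. The classes by annotation differ in the level itself, and the cause of these shifts was not tested. Since depth is unknown, levels near 0 or 100% and levels listed at 0 have no stated precision.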
